A study of Homo sapiens with 4 samples.

Results

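The ERBB receptors and their EGF-like ligands were examined in the established human ovarian carcinoma line SKOV3. The members were the 4 receptor genes EGFR, ERBB2, ERBB3 and ERBB4 and the ligand genes AREG, EREG, HBEGF, TGFA, NRG1 and BTC. These 10 genes were taken by name, and the choice was made with earlier results of these data known. In the array annotation 9 of the 10 had a probe set, 38 probe sets in all of the 54613 that were not controls. AREG was annotated to 0 probe sets and is not analysed here. The groups compared were SKOV3 cells treated with rhSTIP1 (2 arrays) and control SKOV3 cells that received no rhSTIP1 (2 arrays). The name rhSTIP1 was taken to mean recombinant human STIP1, a cochaperone that joins HSP70 and HSP90 and is also secreted. The labels give neither the dose nor the duration of the rhSTIP1 treatment. They also do not say whether replicate arrays represent independent cultures, and the p-values therefore describe the scatter among the arrays at hand, which may be technical. All arrays came from the one cell line.

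ERBB receptors are tyrosine kinases of the cell surface that pair with each other when a ligand binds. EGFR, ERBB3 and ERBB4 bind ligands, whereas ERBB2 has no known ligand and serves as the favoured partner of the others, and ERBB3 has little kinase activity of its own. The ligands are made as membrane-bound precursors that proteases such as ADAM17 and ADAM10 release. EREG, HBEGF and BTC bind EGFR and ERBB4, TGFA binds EGFR, and NRG1 binds ERBB3 and ERBB4. SKOV3 is known for an amplified and overexpressed ERBB2 gene.

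The values are MAS5 signals, a linear intensity for each probe set, which the authors' software scaled to the same trimmed mean on every array. Median signals ran from 66.0 to 79.2 over the 4 arrays. The ratio of ACTB signal at the 3′ end to that at the 5′ end, which rises when RNA is degraded, was 8.79 on rhSTIP1 array 2 and between 2.45 and 2.74 on the other 3, so that array stood apart on this measure. The same ratio for GAPDH was 1.32 on rhSTIP1 array 2 and between 0.99 and 1.16 on the other 3. All 6 epithelial markers, among them EPCAM and the keratins KRT8 and KRT18, reached the minimum for testing, as did 3 of 4 ovarian carcinoma markers, PAX8 included, while MUC16 lay under it. The 3 leukocyte markers measured were all under that minimum on average. It was reached by 3 of 5 fibroblast markers (COL1A1, COL1A2 and DCN, but not COL3A1 or LUM), by 1 of 3 endothelial markers (PECAM1) and by the erythroid marker HBB. The summed fibroblast signal was 359 to 559 with rhSTIP1 and 306 to 562 in the controls. In RNA from bulk cultures, fewer cells carrying a transcript and less of it per cell cannot be told apart.

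Across the family, 0 of 9 member genes passed limma's test at an adjusted p of 0.05, the same 0% as over all 12296 genes tested. At an unadjusted p under 0.05 there was 1 member gene, EREG, against 452 genes or 3.68% of all. Where a gene had several probe sets, the brightest on average stands for it, and "separated" means that both rhSTIP1 arrays lay on the same side of both control arrays and that the groups differed by at least 1.5-fold on the log2(signal + 16) scale. EREG was separated lower and ERBB3 separated higher, 2 of 9 genes beside 5.69% of all genes (3.79% lower and 1.90% higher). With no condition on size, 3 of 9 member genes showed groups that did not overlap, against 28.9% of all genes. The median log2 fold change of the 9 members was 0.05, with 6 above 0 and 3 below, against 0.02 over all tested genes, of which 53.2% were above 0. Without rhSTIP1 array 1 the median of the members was 0.18.

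**Figure D1:**
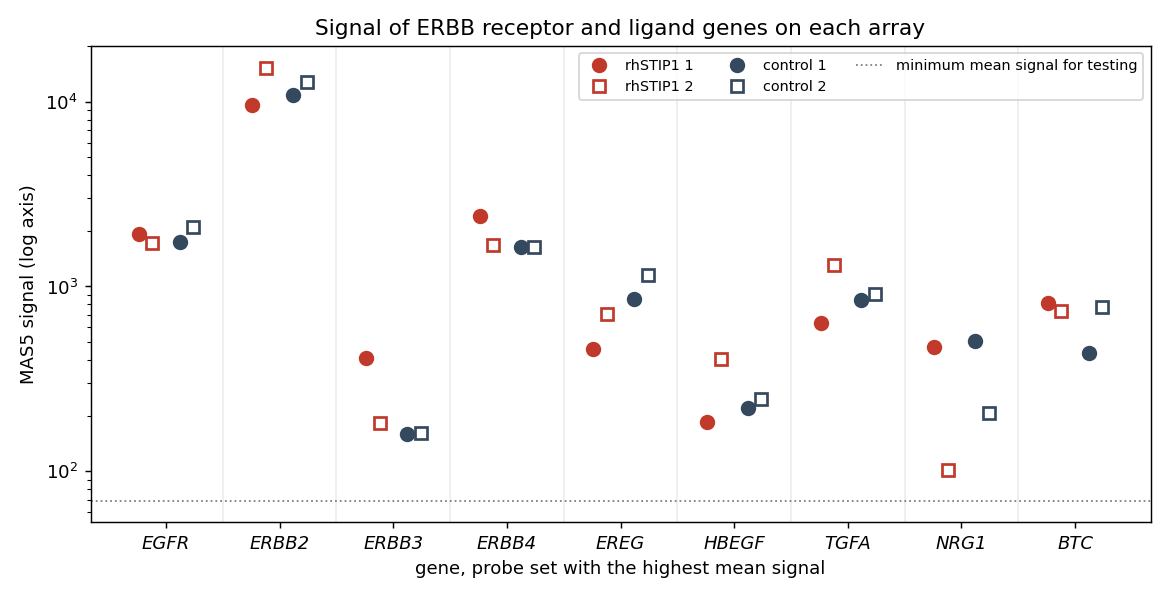
MAS5 signal (log axis) of the 9 member genes on the rhSTIP1 arrays (red) and the control arrays (dark), filled circles for array 1 and open squares for array 2, with a dotted line at the minimum mean signal for testing, 69.4. EREG is the only gene of which both rhSTIP1 arrays lie below both control arrays, and for ERBB3 and ERBB4 both lie above. Signals of different genes come from different probes and their heights cannot be compared.

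EREG encodes epiregulin, a ligand of EGFR and ERBB4. Its brighter probe set had signals of 460 and 706 on the rhSTIP1 arrays, against 858 and 1152 on the control arrays. Both rhSTIP1 arrays were below both controls, and the gap between the nearest arrays of the groups was smaller than the spread within either group. The log2 fold change was −0.78 ± 0.30 (SE from limma), or 1.72-fold lower, with an unadjusted p of 0.0313 and an adjusted p of 0.999 over all genes. Its 95% interval ran from −1.48 to −0.09. Leaving out arrays one by one gave values from −1.09 (without rhSTIP1 array 2, the one with the high ACTB ratio) to −0.48 (without rhSTIP1 array 1). The other EREG probe set was dim, at 57.4 and 72.1 with rhSTIP1 and 48.9 and 70.6 in the controls, and the groups overlapped. Averaging both probe sets gave a log2 fold change of −0.34.

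EREG lies on chromosome 4 among other EGF-like ligand genes. In the RefSeq gene order the protein-coding genes from EPGN to BTC were EPGN, EREG, AREG and BTC. Of these, EREG and BTC had an annotated probe set, and their log2 fold changes had opposite signs. BTC encodes betacellulin, and its brighter probe set read 810 and 741 with rhSTIP1 and 436 and 776 in the controls. The groups overlapped for BTC, and 1 array, control array 1, was low. Its log2 fold change was 0.40 ± 0.31 and −0.0025 without control array 1. The dimmer BTC probe set read 178 and 67.9 with rhSTIP1 and 97.1 and 153 in the controls, an overlap with a log2 fold change of −0.11 ± 0.47.

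HBEGF and TGFA, which encode heparin-binding EGF-like growth factor and transforming growth factor alpha, were each lowest on rhSTIP1 array 1 and highest on rhSTIP1 array 2. HBEGF read 185 and 407 with rhSTIP1, against 220 and 246 in the controls. TGFA read 635 and 1306 with rhSTIP1, against 847 and 908 in the controls. Both control arrays fell between the treated ones, so the treated arrays disagreed in direction. The log2 fold changes were 0.23 ± 0.39 for HBEGF and 0.05 ± 0.35 for TGFA. Without rhSTIP1 array 2 they were −0.30 and −0.46, and without rhSTIP1 array 1 they were 0.77 and 0.57. The part of the high ACTB ratio of rhSTIP1 array 2 in these values was not tested. The second HBEGF probe set by brightness also was highest on rhSTIP1 array 2, at 80.0 and 172 with rhSTIP1 and 102 and 78.8 in the controls.

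NRG1, neuregulin 1, gave the widest spread of the family. The brightest probe set read 471 and 102 with rhSTIP1, against 505 and 206 in the controls. In both groups array 2 was lower than array 1, with a log2 difference of −2.05 with rhSTIP1 and −1.23 in the controls. The log2 fold change was −0.51 ± 0.67, with a 95% interval from −2.06 to 1.05, and it was 0.52 without rhSTIP1 array 2. The other 5 NRG1 probe sets, which were designed on other transcript records of the gene, were all under the minimum signal. For 2 of these both rhSTIP1 arrays lay below both controls, at 30.5 and 7.14 against 77.1 and 70.5 for the brighter of them and at 9.76 and 44.4 against 56.1 and 53.1 for the other. At such dim levels no test was made, and the share of all dim probe sets without overlap was not computed.

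**Figure D2:**
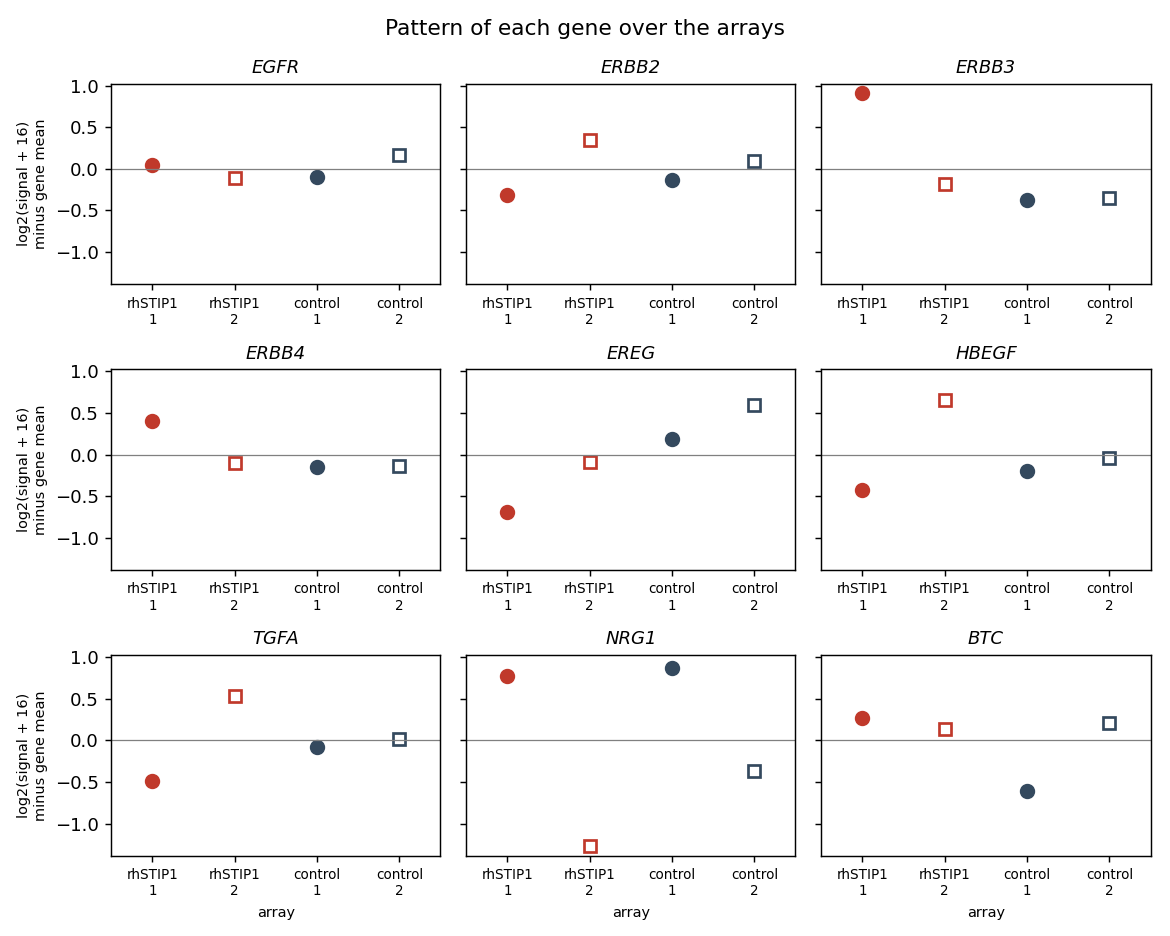
log2(signal + 16) of each member gene on the 4 arrays after subtracting the gene's mean over them, with rhSTIP1 arrays in red on the left and control arrays in dark on the right of each panel, array 1 filled and array 2 open. HBEGF and TGFA show the 2 rhSTIP1 arrays on opposite sides of the controls, and NRG1 shows array 2 low in both groups.

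The regions around the starts of the ligand genes discussed above are printed because EREG was the separated ligand and HBEGF and TGFA shared an array pattern. Each covers 250 bases before to 50 bases after the annotated start in RefSeq on GRCh38.p14, read 5′ to 3′ along the gene's strand. They are EREG (chr4:74364895-74365194, plus strand), HBEGF (chr5:140346554-140346853, minus strand) and, for the first of 2 TGFA starts, TGFA (chr2:70553777-70554076, minus strand). Capitals mark the matches to the motifs named after the sequences.

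EREG: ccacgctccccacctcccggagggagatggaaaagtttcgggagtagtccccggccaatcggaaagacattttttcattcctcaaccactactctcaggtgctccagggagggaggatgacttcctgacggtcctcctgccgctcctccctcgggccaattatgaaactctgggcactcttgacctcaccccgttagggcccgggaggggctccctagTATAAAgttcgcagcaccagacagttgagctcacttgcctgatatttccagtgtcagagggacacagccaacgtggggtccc

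HBEGF: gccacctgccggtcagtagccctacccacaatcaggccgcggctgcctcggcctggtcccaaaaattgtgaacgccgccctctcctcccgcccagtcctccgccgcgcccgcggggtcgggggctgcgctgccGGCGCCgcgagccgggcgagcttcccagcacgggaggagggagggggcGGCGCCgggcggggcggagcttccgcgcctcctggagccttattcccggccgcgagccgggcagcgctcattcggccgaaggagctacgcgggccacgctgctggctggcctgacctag

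TGFA: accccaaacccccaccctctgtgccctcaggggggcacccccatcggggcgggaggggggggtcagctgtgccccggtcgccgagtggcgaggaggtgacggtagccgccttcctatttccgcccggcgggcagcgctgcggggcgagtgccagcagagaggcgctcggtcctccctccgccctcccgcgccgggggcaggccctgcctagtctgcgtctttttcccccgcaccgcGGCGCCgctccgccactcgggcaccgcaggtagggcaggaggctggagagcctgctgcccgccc

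The motifs below were searched on both strands, with no overlap among the matches printed. GGCGCC, a GC-rich sequence that SMAD1 and SMAD5 can bind, matched at 2 places in the HBEGF window, 117 and 69 bases before the start, and at 1 place in the TGFA window, 14 bases before it. Of 35116 windows of the same length 19.2% held it. The EREG window held TATAAA, the core promoter sequence for the TBP protein, 32 bases before the start, as did 11.5% of windows. TGANTCA, the AP-1 sequence (7.71% of windows), and TGACGTCA, the cyclic AMP response element (1.85%), matched in none of these 3 windows. Each match is a description of letters and not of binding.

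Among the receptors, ERBB2 and EGFR gave overlapping groups. ERBB2 read 9641 and 15302 with rhSTIP1, against 10933 and 12799 in the controls. The rhSTIP1 arrays held both the lowest and the highest value. The log2 fold change was 0.04 ± 0.25 with a 95% interval from −0.53 to 0.61, so a difference of 2-fold in either direction lay outside the interval. Under quantile normalization it was −0.05. No other cell line was measured, so the overexpression of ERBB2 in SKOV3 could not be examined here. The 2 further ERBB2 probe sets were much dimmer and went opposite ways. The brighter of them read 199 and 187 with rhSTIP1 and 124 and 128 in the controls, with both treated arrays higher, whereas the dimmer read 100.3 and 71.7 with rhSTIP1 and 114 and 112 in the controls, with both lower. Their log2 fold changes were 0.56 ± 0.30 and −0.36 ± 0.36 (adjusted p = 1.00 for both in limma's fit over 27307 probe sets).

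EGFR, the receptor of most of these ligands, read 1915 and 1718 with rhSTIP1 and 1736 and 2089 in the controls at its brightest probe set. The log2 fold change was −0.07 ± 0.24 with a 95% interval from −0.62 to 0.48, which also left out a 2-fold difference. Leaving out rhSTIP1 array 2 gave 0.01, and leaving out control array 2 gave 0.06. The next EGFR probe set by brightness overlapped as well, at 554 and 697 with rhSTIP1 against 502 and 887 in the controls. The third read 584 and 587 with rhSTIP1 against 698 and 651 in the controls, lower in both treated arrays with a log2 fold change of −0.20 ± 0.25. The other 6 EGFR probe sets were dim, with single-array signals between 3.56 and 88.6. The dimmest of them read 7.96 and 5.26 with rhSTIP1 against 12.4 and 8.41 in the controls, lower in both treated arrays.

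ERBB3 was the separated receptor. The brightest probe set read 411 and 183 with rhSTIP1, against 159 and 161 in the controls. Both treated arrays were higher, but array 2 only just, and the 2 rhSTIP1 arrays differed from each other far more than the controls did. The log2 fold change was 0.73 ± 0.40 or 1.66-fold (unadjusted p = 0.107 and adjusted p = 0.999 in limma's fit). It was 0.18 without rhSTIP1 array 1 and 1.28 without rhSTIP1 array 2. The next probe set was also higher in both treated arrays, at 152 and 158 against 143 and 126, a log2 fold change of 0.19 ± 0.31 with no excess on rhSTIP1 array 1. The third overlapped, at 80.1 and 97.2 with rhSTIP1 against 48.7 and 99.2 in the controls. The other 2 ERBB3 probe sets were under the minimum, and with all 5 averaged the log2 fold change of ERBB3 was 0.15.

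ERBB4, which binds neuregulins and some EGFR ligands, had 3 tested probe sets that did not move together. The brightest read 2400 and 1688 with rhSTIP1, against 1632 and 1646 in the controls, with both treated arrays higher and rhSTIP1 array 1 well apart. Its log2 fold change was 0.29 ± 0.26, and 0.04 without rhSTIP1 array 1. The dimmest of the 3 was lower in both treated arrays, at 88.7 and 75.3 against 104 and 95.4, a log2 fold change of −0.24 ± 0.36. The middle one overlapped, at 242 and 369 with rhSTIP1 against 299 and 343 in the controls. With all 4 ERBB4 probe sets averaged the log2 fold change was −0.01.

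Of the 38 member probe sets, 19 reached the minimum mean signal and 19 did not. Among those tested, 8 did not overlap between the groups, 4 higher and 4 lower with rhSTIP1, where 28.2% of all 27307 tested probe sets did not overlap. The 2 separated by at least 1.5-fold were those of EREG and ERBB3 given above, against 6.42% of all probe sets. The smallest adjusted p of a member probe set was 1.00, and 0 of all probe sets (0%) passed, with 878 at an unadjusted p under 0.05 and a smallest adjusted p of 0.154. Probe sets of 1 gene share their RNA and are not replicates of each other. The 19 dim probe sets had single-array signals between 1.38 and 88.6. For 3 of them the groups did not overlap, and the share of all dim probe sets without overlap was not computed.

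**Figure D3:**
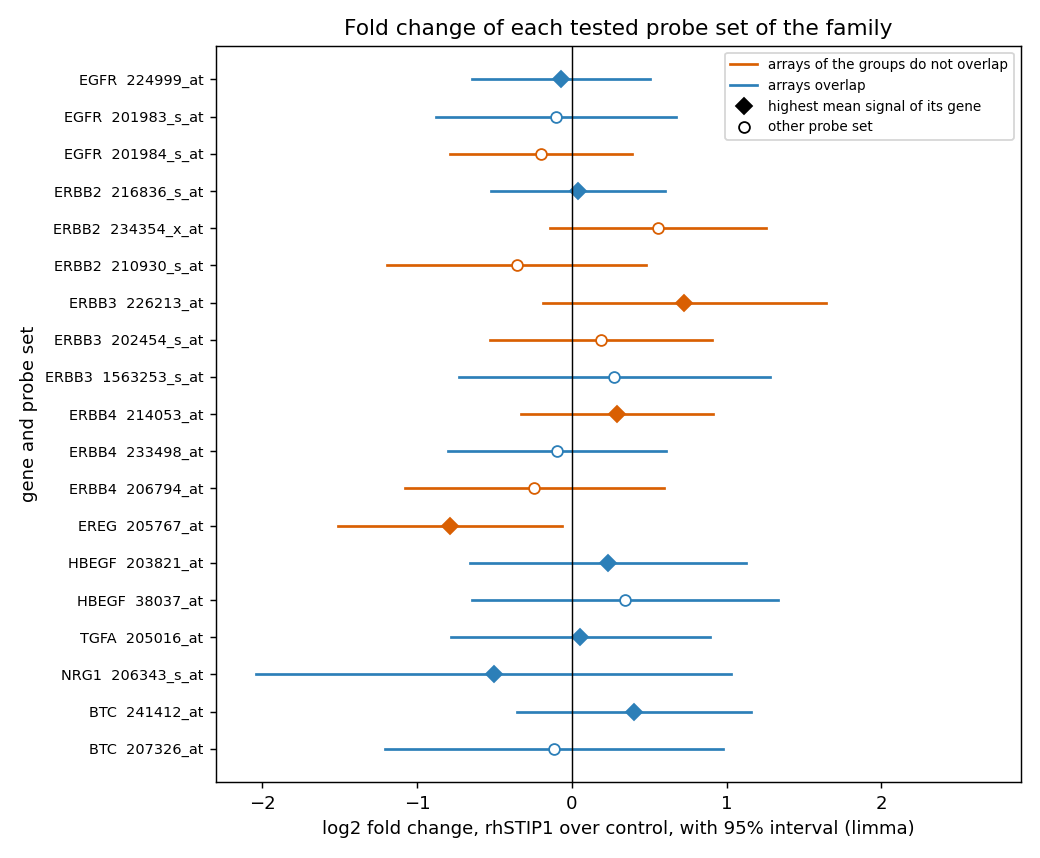
log2 fold change of rhSTIP1 over control with its 95% interval from limma for the 19 tested member probe sets, diamonds for the probe set that stands for its gene and open circles for the others, orange where the arrays of the groups do not overlap. The interval of the brighter EREG probe set ends at −0.06 in this fit over probe sets, and those of the other 18 include 0. The ERBB2 and ERBB4 probe sets lie on both sides of 0.

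The genes whose pattern over the 4 arrays was most like that of a member were found among 12296 genes by the root mean square difference of log2(signal + 16) after centring each gene on its mean. For EREG they were WASIR2 (0.02), SLC35G1 (0.05) and C6orf47 (0.06). WASIR2 read 72.6 and 119 with rhSTIP1 and 148 and 195 in the controls. For ERBB3 they were KLF7 (0.10), RRAD (0.11) and TET1 (0.14). KLF7, a Kruppel-like transcription factor, read 779 and 368 with rhSTIP1 and 325 and 276 in the controls. For BTC they were XK, SLC39A11 and SLC33A1, each at 0.03. The likeness is a description of these 4 arrays only.

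Genes that release, transmit or limit ERBB signals were taken as lists, and 0 genes of any list passed the adjusted test. Among other EGF-like ligands only NRG2 was bright enough to be tested, at 92.3 and 86.1 with rhSTIP1 against 31.1 and 81.0 in the controls, with a log2 fold change of 0.64 ± 0.48 and of 0.12 without control array 1. NRG2 reached the minimum only through the rhSTIP1 arrays, its control mean of 56.1 being under it. EGF itself was under the minimum, at 25.0 and 41.5 with rhSTIP1 and 30.3 and 25.5 in the controls. Of 9 tested genes for ligand shedding and trafficking 6 were above 0 and 3 below, with a median of 0.17. Of these 9, 0 were separated, against 5.69% of all genes. The sheddase ADAM17 read 4067 and 3607 with rhSTIP1 against 2523 and 3560 in the controls, 0.35 ± 0.25. ADAM10 read 11158 and 11649 against 7173 and 11218, 0.35 ± 0.24, but averaging its probe sets gave −0.07. RHBDF2, which brings ADAM17 to the surface, had 0.53 ± 0.44. For all 3 the low value was control array 1, and without it the median of the list was −0.0016.

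The 23 tested adaptors and signal transducers had a median log2 fold change of −0.05, with 10 above 0 and 13 below, and 0.08 without rhSTIP1 array 1. PIK3R1, a regulatory subunit of PI3-kinase, was the 1 gene of the list separated, where 5.69% of all genes were. It was lower, at 966 and 687 with rhSTIP1 against 1699 and 998 in the controls (−0.67 ± 0.32), and had −0.29 without control array 1. The adaptor NCK1 was lower in both treated arrays, at 2420 and 2284 against 3203 and 3081 (−0.42 ± 0.22). GRB7, an adaptor that binds ERBB2 and whose gene lies close to it, overlapped at 588 and 1106 against 894 and 1784 (−0.64 ± 0.41). The 13 tested genes around ERBB2 on chromosome 17 had a median of 0.02, equal to that of all genes, with 8 above 0 and 5 below. Dropping rhSTIP1 array 1 put that median at 0.24, and dropping control array 1 put it at −0.12. The separated gene there was GSDMB, a gasdermin, where 5.69% of all genes were separated. It read 1011 and 1101 with rhSTIP1 against 627 and 746 in the controls (0.61 ± 0.24, unadjusted p = 0.0353 and adjusted p = 0.999 in limma's fit). Averaging the probe sets of GSDMB gave 0.34. MIEN1, a direct neighbour of ERBB2, had 0.22 ± 0.18.

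Inhibitors and degradation factors of the receptors had a median of −0.07 over 21 tested genes, 8 above 0 and 13 below. The 2 separated genes were both lower with rhSTIP1, where 3.79% of all genes were separated lower and 1.90% higher. ERRFI1, which binds EGFR and ERBB2 and blocks their kinases, read 1374 and 3619 with rhSTIP1 against 4927 and 4162 in the controls, −1.02 ± 0.42. Its treated arrays differed widely, and the log2 fold change was −0.32 without rhSTIP1 array 1 and −1.71 without rhSTIP1 array 2. SOCS3, an inhibitor of cytokine and receptor signalling, read 276 and 258 with rhSTIP1 against 448 and 506 in the controls, with tight replicates in both groups and a log2 fold change of −0.80 ± 0.25. Averaging the probe sets of SOCS3 gave −0.36. The unadjusted p was 0.0431 for ERRFI1 and 0.0144 for SOCS3, and the adjusted p was 0.999 and 0.991 in limma's fit over all genes. MVB12B, part of a complex that sorts receptors for degradation, was higher in both treated arrays at 0.50 ± 0.24, but averaging its probe sets gave −0.06.

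Genes known to be induced by EGF signalling differed in both directions. Of 27 tested, 10 had an unadjusted p under 0.05, 7 higher and 3 lower, where 3.68% of all genes did, and 11 were separated, 9 higher and 2 lower, against 1.90% of all genes higher and 3.79% lower. The list was chosen with earlier results of these data known, so these counts beside the shares of all genes are not a test. The median of the list was 0.15, with 15 above 0 and 12 below. FOSB, an AP-1 subunit, read 444 and 137 with rhSTIP1 against 18.6 and 6.12 in the controls (3.26 ± 0.59, adjusted p = 0.547). FOSB, which is among the 7 and the 9 higher genes, reached the minimum only through the rhSTIP1 arrays. Its control mean of 12.3 was far under it, so the size of its difference depends on the pseudocount, being 4.39 with 1 and 2.07 with 64. It was 2.47 without rhSTIP1 array 1 and 4.06 without rhSTIP1 array 2. DUSP5, a phosphatase of ERK, read 3820 and 6066 with rhSTIP1 against 1299 and 1876 in the controls (1.61 ± 0.31, adjusted p = 0.643). JUNB (1.08 ± 0.23), KLF10 (0.94 ± 0.23), FOSL1 (1.18 ± 0.42), DUSP1 (0.86 ± 0.32) and PLAUR (0.66 ± 0.25) were also higher in both treated arrays. FOSL1 had 1.82 without rhSTIP1 array 1 and 0.53 without rhSTIP1 array 2, and averaging the probe sets of DUSP1 gave −0.04. The ERK phosphatase DUSP6 read 498 and 650 with rhSTIP1 against 3000 and 847 in the controls, lower in both treated arrays with a log2 fold change of −1.46 ± 0.53, and of −0.56 without control array 1. KLF6 was lower in both as well (−0.83 ± 0.34), and had −0.31 without control array 1. PHLDA1 overlapped at −1.07 ± 0.45, with −0.37 when rhSTIP1 array 1 was dropped and −1.77 when rhSTIP1 array 2 was. The median of the list was 0.61 without rhSTIP1 array 1, −0.31 without rhSTIP1 array 2, 0.16 without control array 1 and −0.02 without control array 2. Several of these genes are induced by other pathways too, and the list does not measure receptor activity.

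**Figure D4:**
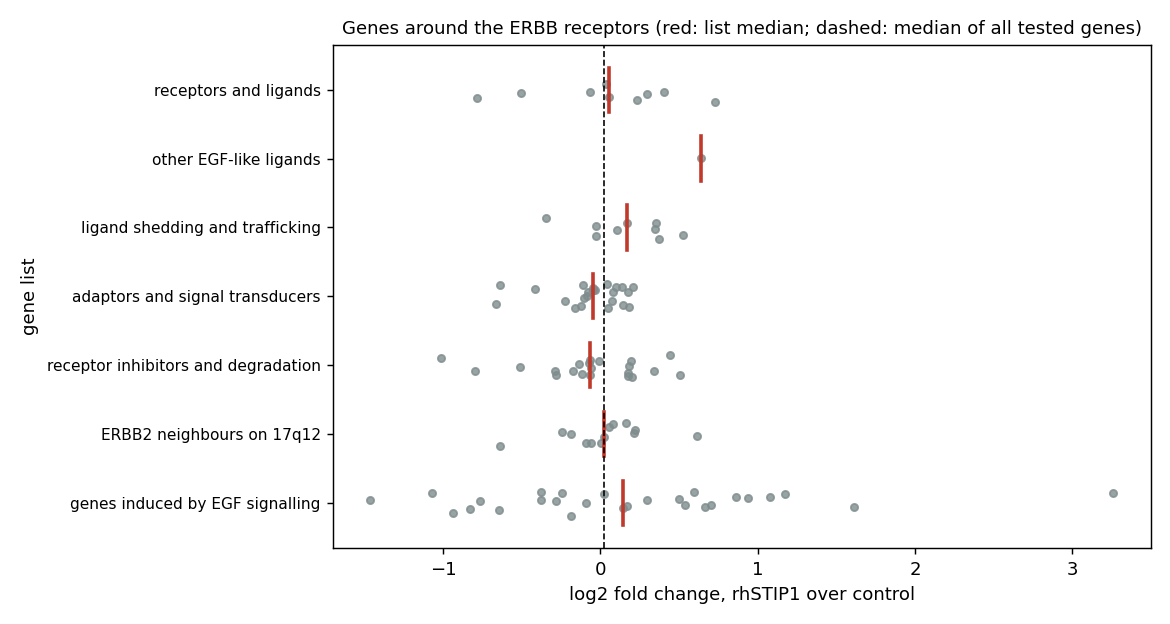
log2 fold change of rhSTIP1 over control for each tested gene (grey points, jittered vertically) of the receptor and ligand genes and of 6 lists around them, with list medians in red and the median of all tested genes, 0.02, dashed. Genes induced by EGF signalling spread from −1.46 (DUSP6) to 1.61 (DUSP5), apart from FOSB at 3.26, whose control signals are under the minimum, and the receptor and ligand genes lie between −0.78 and 0.73.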

How the data were processed

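Expression was measured on 4 Affymetrix arrays of SKOV3 cells, 2 treated with rhSTIP1 and 2 controls, grouped by sample title. The deposited values are linear signal intensities from the authors' MAS5 run. The software was Affymetrix Expression Console 1.1, as the submitters' processing notes state. The trimmed mean signal (2% from each end) was 500.1 on each array. The table held no detection calls, so dim signals could not be told from background, and the number of arrays limits the precision.

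Gene symbols came from the platform annotation. Of 54613 probe sets other than 62 controls, 41091 had exactly 1 symbol, 1801 had several and 11721 had none. For each of the 19775 genes the probe set of highest mean signal was kept. Features with a mean of at least 69.4, the median over probe sets, were tested. That left 12296 genes and 27307 probe sets.

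Tests were lmFit and eBayes with an intensity trend in limma 3.58.1 (R 4.3.3) on log2(signal + 16). They were two-sided and adjusted over all features by Benjamini-Hochberg. Fold changes are on that scale and understate those of dim features. Values with ± are standard errors. Gene values come from the fit over genes, those of further probe sets from the fit over probe sets. Genes had 2 residual degrees of freedom plus 5.56 from the shared estimate. An exact permutation test of 1 gene, 2 arrays against 2, cannot give a p below 0.333. The steps were tested on simulated data.

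Members and lists were chosen with earlier results of these data known. All members are described. From each list, genes with an unadjusted p under 0.05 were named, and at least the 3 with the smallest p, together with the 3 genes nearest in pattern to each of the 3 members with the smallest p. Alternatives covered the pseudocount, filter, scaling, probe set choice, replicate number as a block, eBayes settings and leaving out each array. Promoter windows and gene order came from RefSeq (GRCh38.p14), with a window for 8 of the 10 member genes.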

Additional observations from a re-analysis of the deposited data

How the results depend on the processing

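The number of genes called at an adjusted p of 0.05, 0 as reported, was 1 with a filter at the 70th percentile, 2 with median centring, 2 with robust eBayes and 247 with the replicate number as a block, and from 0 to 6 with 1 array left out. For probe sets it was 261 with the replicate block and from 1 to 7 with 1 array left out. The same number is not stated to mean a shared batch. Deviations of same-numbered arrays correlated at 0.36 across genes. With the replicate block 0 members passed (EREG −0.78, adjusted p = 0.0813), and 9 list genes did (ERRFI1, FOSB, DUSP5, JUNB, KLF10, FOSL1, DUSP6, DUSP1 and KLF6). The 700 separated genes became 2087 with no filter and 424 with the stricter one, and from 1062 to 1979 with 1 array left out, a looser criterion since 3 values rather than 4 must separate. Separated member genes, 2 as reported, were 1 with the stricter filter, which left ERBB3 out, and 0 with the mean of probe sets.

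Of 552 recomputed log2 fold changes of 41 genes and probe sets, 520 kept direction and side of the threshold, 23 changed sign and 9 passed. The filters, the replicate block and the eBayes settings leave a log2 fold change as it is, so they could not turn a sign. The sign of ERBB2 turned under quantile normalization (−0.0475), and averaging probe sets turned ERBB4 (−0.0149), ADAM10 (−0.0677), MVB12B (−0.0634) and DUSP1 (−0.0413). With 1 array left out the sign turned for EGFR (−0.20 to 0.0628), ERBB2 (−0.29 to 0.37), HBEGF (−0.30 to 0.77), TGFA (−0.46 to 0.57), NRG1 (−1.53 to 0.52), BTC (−0.0025 to 0.81) and RHBDF2 (−0.12 to 1.17). It also turned for the following further probe sets, ranked by brightness, of EGFR, the second (−0.50 to 0.30), of ERBB3, the third (−0.14 to 0.69), of ERBB4, the second (−0.38 to 0.19), of HBEGF, the second (−0.14 to 0.83) and of BTC, the second (−0.72 to 0.49). The causes were not tested. EREG and ERBB3 kept their direction under all alternatives in which they were fitted. Because the groups did not overlap for either gene, leaving out 1 array or changing the pseudocount could not turn their signs. Leaving out an array assumes that the remaining single array has the variance of the other group. With the stricter filter 0 of the other EGF-like ligands were left to give a median.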
